A study of Mus musculus with 6 samples.

Results

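Imprinted genes are read from only one parental copy, and 10 of them that belong to a network controlling growth before birth were followed in mouse liver tumors with and without Top1mt. They were Peg3, H19, Igf2, Igf2r, Dlk1, Meg3, Plagl1, Cdkn1c, Grb10 and Mest, found by symbol among the 30236 genes of the deposited expression table. All 10 had one row each and were among the 22677 genes tested, those whose mean lay above the lowest 25% of all genes. Peg3 was chosen by its higher level in the knockout libraries, so its values are given as a description, with no test. The other 9 were named as imprinted growth genes with earlier results of these libraries known. The question was whether the rise of Peg3 was shared by other imprinted genes.

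RNA was sequenced from 3 liver tumors of WT (Top1mt+/+) mice and 3 of Top1mt-KO (Top1mt-/-) mice, bred from heterozygous parents. Top1mt encodes a DNA topoisomerase that works in mitochondria, and the deletion was present in the whole animal. All mice were male C57BL/6 littermates. Every one of them received the liver carcinogen diethylnitrosamine on day 14 after birth. Injections of the hepatotoxin carbon tetrachloride started at 8 weeks of age and went on for 14 weeks, and tumors were collected at 22 weeks. No untreated liver was compared here. Because the strain is inbred, the maternal and paternal copies of a gene could not be told apart, and the values below are levels of both copies together.

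In an imprinted gene, DNA methylation laid down in the egg or the sperm at a control region silences one copy in the offspring. The silenced copy depends on the parent it came from, and neighbouring genes under one control region often have opposite parental expression. Paternally expressed genes of the network tend to favour growth of the fetus, and maternally expressed ones tend to limit it. Most are switched off or lowered in the liver after birth, and several are known to return in liver tumors. Among the members, Peg3, Igf2, Dlk1, Plagl1 and Mest are expressed from the paternal copy, and H19, Igf2r, Meg3, Cdkn1c and Grb10 from the maternal copy.

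The members lie in 7 places of the genome (GRCm38, GENCODE M21). Peg3 lies alone on chromosome 7, with H19, Igf2 and Cdkn1c in a second region of that chromosome. Dlk1 and Meg3 are neighbours on chromosome 12. Plagl1 lies on chromosome 10, Grb10 on chromosome 11, Igf2r on chromosome 17 and Mest on chromosome 6. The promoters of the 3 members on which most of the results turn are shown: Peg3, which was higher in the knockout, Plagl1, which was lower without overlap, and Meg3, which varied most. Each run holds the 250 bases before the annotated start in RefSeq on GRCm38.p6, written 5′ to 3′ on the strand of the gene, with CpG pairs, the targets of DNA methylation, in capitals. Peg3 is read from the minus strand at chr7:6730420-6730669, Meg3 from the plus strand at chr12:109540746-109540995, and Plagl1 from the plus strand at chr10:13090582-13090831.
Peg3: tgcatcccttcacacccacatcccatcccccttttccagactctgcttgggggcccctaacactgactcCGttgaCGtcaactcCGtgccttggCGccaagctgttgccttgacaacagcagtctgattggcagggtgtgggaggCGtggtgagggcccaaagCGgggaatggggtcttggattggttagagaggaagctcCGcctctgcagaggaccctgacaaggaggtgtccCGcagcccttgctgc
Meg3: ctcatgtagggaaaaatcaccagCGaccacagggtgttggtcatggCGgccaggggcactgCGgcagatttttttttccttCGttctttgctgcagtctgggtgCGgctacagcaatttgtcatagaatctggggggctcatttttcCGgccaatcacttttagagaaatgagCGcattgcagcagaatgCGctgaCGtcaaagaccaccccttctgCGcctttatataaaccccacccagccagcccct
Plagl1: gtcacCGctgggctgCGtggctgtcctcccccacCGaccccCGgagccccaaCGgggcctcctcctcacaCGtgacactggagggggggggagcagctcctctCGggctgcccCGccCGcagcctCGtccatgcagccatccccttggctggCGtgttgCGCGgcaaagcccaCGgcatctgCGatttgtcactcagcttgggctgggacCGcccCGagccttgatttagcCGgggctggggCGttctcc

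The promoter of Peg3 held 8 CpG pairs, a number that 43.0% of the 32851 promoters of the RefSeq table reached. Meg3 held 10, and Plagl1 held 19, reached by 19.7%. ZFP57 is a zinc finger protein that keeps methylation at imprinted control regions and recognises the letters TGCCGC. These letters were searched on both strands and occurred in 8.68% of all promoters. Of 8 members with an entry, which had 15 annotated starts, the letters stood in 4 starts of 3 members, namely the first start of Meg3, the start of Plagl1 and starts 2 and 3 of Mest. These Mest starts lie so close together that they share most of their bases. Peg3 had none within this window. A match is a description of the letters and not a measured site, and no methylation was measured in these tumors. H19 and Cdkn1c were not analysed here for sequence.

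**Figure D1:**
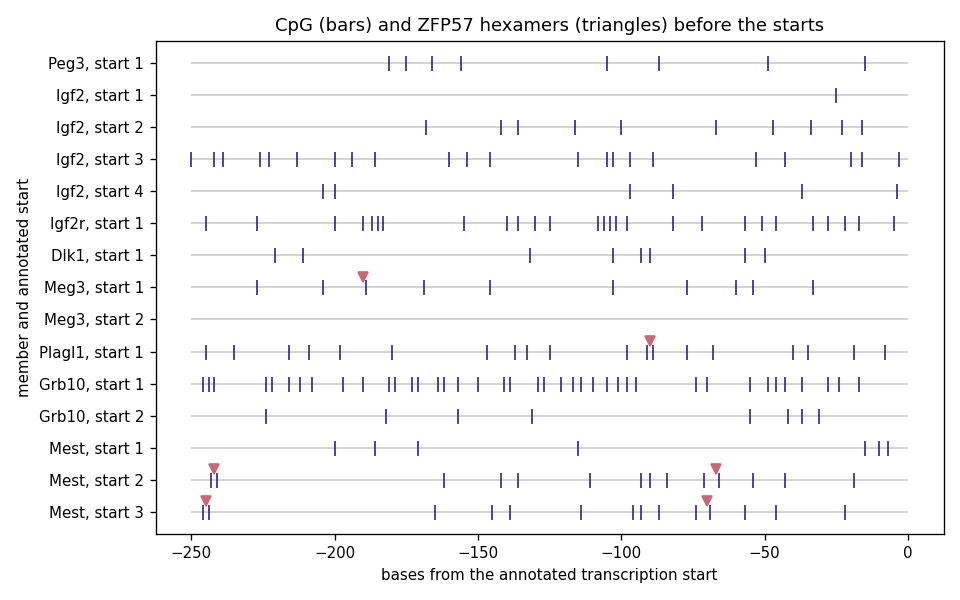
CpG pairs (bars) and ZFP57 hexamers (triangles) in the bases before each annotated start of the 8 members with a promoter entry, with the horizontal axis giving bases from the start and one row for each start. The first start of Grb10 held the most CpG pairs, 40, and the second start of Meg3 held 0.

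The values are the log2 expression values that the authors deposited, normalized between libraries and running from -2.24 to 22.0. They behave like a regularized log, in which weakly expressed genes are drawn toward their mean, so differences of such genes are understated. Read depth could not be recovered from them. Genotypes were compared with limma, and a difference is the Top1mt-KO mean minus the WT mean on the log2 scale. In the targeted gene, Top1mt, WT replicates 1 to 3 had 7.71, 5.99 and 8.01, and Top1mt-KO replicates 1 to 3 had 5.58, 6.41 and 6.32. WT replicate 2 was thus lower than Top1mt-KO replicates 2 and 3, against its label, and all directions below rest on the labels. Hepatocyte markers were high in all 6 libraries, with a mean of 8 genes between 15.7 and 16.1. Over all genes tested, 0% passed an adjusted p under 0.05 by limma, and 4.34% (985 genes) had an unadjusted p under 0.05. In 8.28% of the genes the genotypes did not overlap, with the knockout above WT in 3.95% and below it in 4.33%, and 47.7% had a higher mean in the knockout. The median difference over all genes tested was -0.02 and the median absolute difference 0.21.

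The rise of Peg3 was not seen in the other 9 members as a group. Mest and H19 had a higher mean in Top1mt-KO tumors and 7 members a lower one, where 47.7% of all genes tested were higher. The median difference of the 9 was -0.27. The number with a higher mean ran from 1 to 4 with one library left out, and H19 turned to a lower mean in 4 of those 6 fits. In 8 of the 9 the groups overlapped. Plagl1 alone of the 9 separated, in the direction opposite to Peg3, where 4.33% of all genes tested separated downward. None of the 9 passed the adjusted threshold (adjusted p = 0.999 by limma for each, smallest over all genes 0.938). By limma, 1 of them had an unadjusted p under 0.05, where 4.34% of all genes tested did. With 3 libraries a group, differences smaller than the spread between tumors could not be detected, and in bulk tissue fewer cells of a type cannot be told apart from less RNA per cell.

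**Figure D2:**
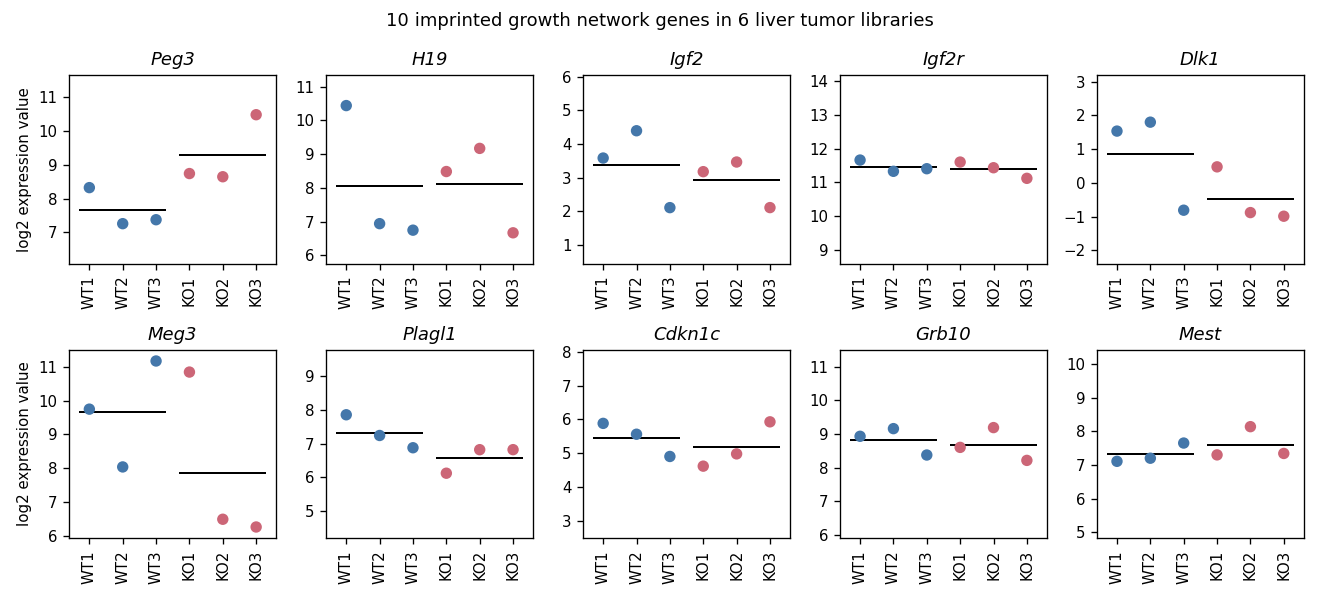
Log2 expression value (vertical axis, the same span of units in each panel) of the 10 members in the 3 WT (blue) and 3 Top1mt-KO (red) libraries, with a point for each library and a line at the group mean. Peg3 was above WT in all 3 knockout libraries and Plagl1 below WT in all 3, and the groups of the other 8 overlapped.

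Peg3 encodes a zinc finger DNA-binding protein with roles in fetal growth, maternal behaviour and cell death. Its log2 values were 8.32, 7.25 and 7.37 in WT replicates 1 to 3 and 8.74, 8.65 and 10.49 in Top1mt-KO replicates 1 to 3. Every knockout library lay above every WT library, the nearest being Top1mt-KO replicate 2 over WT replicate 1, and Top1mt-KO replicate 3 stood highest. WT tumors had a mean of 7.65 ± 0.59 (SD, n = 3) and Top1mt-KO tumors one of 9.29 ± 1.04 (SD, n = 3), a difference of 1.64 by which the gene was chosen. Without Top1mt-KO replicate 3 this difference was 1.04, and without WT replicate 1 it was 1.98. The mean of 6 bile duct markers was lower in the knockout, at 5.37 to 6.25 against 6.26 to 7.39 in WT. The groups were only narrowly apart, with 6.248 in Top1mt-KO replicate 2 and 6.264 in WT replicate 2. Of the 6, Krt19 and, narrowly, Epcam were lower without overlap, where 4.33% of all genes tested separated downward. The other 4 overlapped, and of these Sox9 (difference 0.15) and Spp1 (0.05) had a higher mean in the knockout. Of 8 endothelial markers, 6 had a higher mean in the knockout, and the mean of the 8 overlapped between the groups. Cdh5 (difference 0.40) and Pecam1 (0.16) separated in the same direction as Peg3, where 3.95% of all genes tested did. The part of these cell types in the Peg3 values was not tested.

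The surroundings of Peg3 on chromosome 7 were examined next, since imprinted genes of a cluster often share a control region. Usp29 and Zfp264, partners of Peg3 in its cluster, were not analysed here. Zim1, a maternally expressed zinc finger gene beside Peg3, lay near the bottom of the scale, between -0.75 and -0.02. Within 500 kb of Peg3 the annotation held 50 genes, of which 13 were tested and 7 of these had a higher mean in the knockout. Of the 13, 1 separated upward, where 3.95% of all genes tested did. It was Zfp954, a zinc finger gene named after its values were seen. Its values were 6.53, 6.43 and 6.34 in WT and 6.86 to 7.08 in Top1mt-KO tumors. The median difference of the 13 genes was 0.09.

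Genes were ranked by how closely their centred log2 values over the 6 libraries followed those of Peg3. The 5 closest were Gm13607, Zfp618, B3galt1, Nfil3 and Strc, with root mean square differences of 0.31 to 0.42. Top1mt-KO replicate 3 was the highest library in each of them, as in Peg3. For Nfil3, a basic leucine zipper repressor, the values were 6.55, 5.68 and 6.84 in WT and 7.04, 7.06 and 9.15 in Top1mt-KO tumors. Zfp618 had 6.54, 6.35 and 6.06 in WT and 7.20, 7.89 and 8.67 in the knockout. Since closeness includes the rise by which Peg3 was chosen, these genes are a description of that pattern. None of the 9 other members was among the closest genes. Cdkn1c came nearest, at rank 5323 of 22676, and Meg3 stood at rank 22653. The values were centred but not scaled, so these ranks also depend on how much each gene varied, and Meg3 varied most of the members.

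Plagl1, also called Zac1, is a paternally expressed zinc finger factor that is known to act on other imprinted genes, Igf2, H19 and Dlk1 among them. It had 7.85, 7.24 and 6.88 in WT replicates 1 to 3 and 6.12, 6.82 and 6.82 in Top1mt-KO replicates 1 to 3. All knockout libraries lay below all WT libraries, but WT replicate 3 stood only narrowly above Top1mt-KO replicates 2 and 3. The means were 7.32 ± 0.49 (SD, n = 3) and 6.59 ± 0.40 (SD, n = 3), a difference of -0.74 with a standard error of 0.32. Its unadjusted p by limma was 0.0479 and its adjusted p 0.999, so the gene did not pass. Without WT replicate 1 the difference was -0.47. The mean of the bile duct markers given beside Peg3 was also lower in the knockout, though narrowly. Of 12 stellate cell and myofibroblast markers, 11 had a lower mean in the knockout and all 12 overlapped, where 8.28% of all genes tested separated. The mean of the 12 was highest in WT replicate 1 (10.4) and lowest in Top1mt-KO replicate 1 (8.55), as Plagl1 was. It was second highest in Top1mt-KO replicate 2 (9.88), where Plagl1 lay below all WT libraries. The part of these cell types was not tested. Within 500 kb of Plagl1, 10 genes were tested, of which 6 had a higher mean in the knockout. Ltv1 separated upward and Stx11 downward among them, and both were named after their values were seen. Over all genes tested, 3.95% separated upward and 4.33% downward.

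H19 and Igf2 share a control region and enhancers on chromosome 7. Igf2 encodes the fetal insulin-like growth factor, and H19 is a noncoding RNA made from the maternal copy when Igf2 is silent on it. H19 had 10.44, 6.94 and 6.74 in WT replicates 1 to 3 and 8.48, 9.17 and 6.67 in Top1mt-KO replicates 1 to 3. WT replicate 1 was far above the other WT libraries and Top1mt-KO replicate 3 below the other knockout libraries, and the range of 3.77 was reached by 0.948% of all genes tested. The WT mean was 8.04 ± 2.08 (SD, n = 3) and the knockout mean 8.11 ± 1.29 (SD, n = 3). The difference of 0.07 had a standard error of 1.02 (adjusted p = 0.999 by limma) and turned to -0.58 without WT replicate 3 and to 1.27 without WT replicate 1. The mean of the stellate cell and myofibroblast markers was also highest in WT replicate 1 and next in Top1mt-KO replicate 2, at 9.88, but it was lowest in Top1mt-KO replicate 1, where H19 was higher than in the other 3 libraries. The part of these cells in the H19 values was not tested.

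Igf2 was weakly expressed in both genotypes. It had 3.58, 4.39 and 2.11 in WT replicates 1 to 3 and 3.18, 3.47 and 2.11 in Top1mt-KO replicates 1 to 3. The values of WT replicate 3 and Top1mt-KO replicate 3 were the lowest and nearly equal, and the difference of -0.44 (standard error 0.69) was smaller than the spread. It turned to 0.071 without WT replicate 2 and was -1.07 without WT replicate 3. The difference between H19 and Igf2 within a library ran from 2.54 in WT replicate 2 to 6.86 in WT replicate 1. In the knockout it was 5.30, 5.70 and 4.55. WT replicate 2 thus combined the highest Igf2 with a low H19, and the H19 to Igf2 balance of the knockout lay inside the WT range.

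The fetal liver genes Afp and Gpc3, which like H19 are shut down after birth and reappear in liver tumors, were set beside H19. Alpha-fetoprotein (Afp) had 13.2, 10.8 and 10.6 in WT replicates 1 to 3 and 12.1, 8.06 and 9.13 in Top1mt-KO replicates 1 to 3. Glypican 3 (Gpc3) had 12.1, 11.5 and 9.41 in WT and 12.2, 8.82 and 8.75 in the knockout. WT replicate 1 and Top1mt-KO replicate 1 were the top libraries for Afp and Gpc3, while H19 was second highest in Top1mt-KO replicate 2, where Afp was lowest. Zhx2, a repressor of Afp and H19 in adult liver, stayed between 8.51 and 8.81 in all 6 libraries. The list of fetal liver genes and their repressors also held Lin28a, between 0.56 and 2.73, and Zbtb20. All 5 genes tested of it, fetal genes and repressors alike, had a lower mean in the knockout, where 47.7% of all genes tested were higher. The repressors Zhx2 and Zbtb20 differed by only -0.10 and -0.15. All 5 overlapped between the groups, where 8.28% of all genes tested separated.

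**Figure D3:**
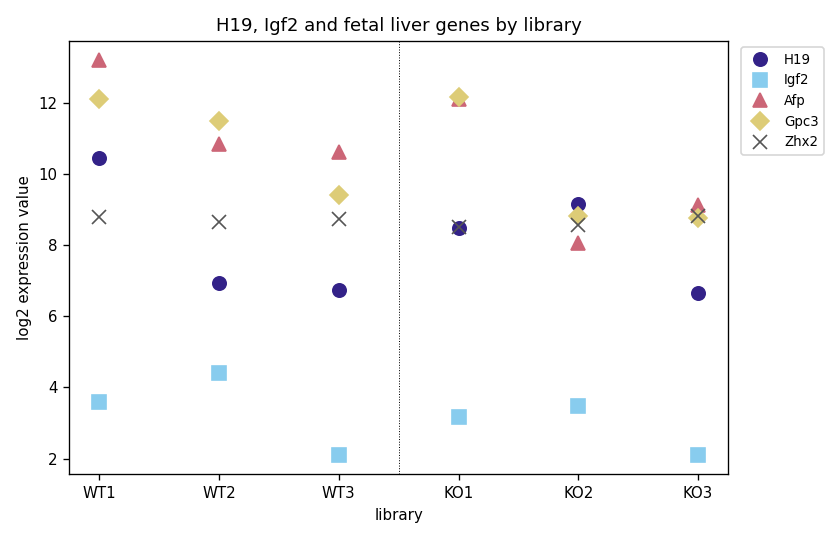
Log2 expression value (vertical axis) of H19, Igf2 and the fetal liver genes Afp and Gpc3 with their repressor Zhx2, in each WT and Top1mt-KO library (horizontal axis), one point for each gene and library. H19 ran from 6.67 to 10.44 and Afp from 8.06 to 13.2, while Zhx2 stayed between 8.51 and 8.81.

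Igf2r encodes the receptor that carries IGF2 to the lysosome for breakdown and so limits growth. It had 11.66, 11.33 and 11.40 in WT replicates 1 to 3 and 11.60, 11.43 and 11.12 in Top1mt-KO replicates 1 to 3. Its range of 0.54 was the narrowest of the members, and 77.9% of all genes tested varied at least as much. The difference of -0.08 had a standard error of 0.17. Airn is a paternally expressed RNA that runs across Igf2r on the opposite strand and silences the paternal copy. It had 7.34, 7.30 and 7.64 in WT and 6.95, 6.91 and 5.43 in the knockout, so that its groups did not overlap. Its difference was -1.0 (standard error 0.41, unadjusted p = 0.0392, adjusted p = 0.999 by limma), and it was -0.50 without Top1mt-KO replicate 3. Whether reads were counted by strand is not given in the sources used here, so reads of Airn and of the introns of Igf2r cannot be told apart.

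Dlk1 and Meg3 share a control region on chromosome 12. Dlk1 encodes a membrane protein of fetal liver cells, and Meg3 is a long noncoding RNA of the maternal copy. Meg3 varied most of the 10 members, with a range of 4.92 that 0.265% of all genes tested reached. It had 9.75, 8.03 and 11.18 in WT replicates 1 to 3 and 10.85, 6.48 and 6.25 in Top1mt-KO replicates 1 to 3. WT replicate 3 and Top1mt-KO replicate 1 were high and Top1mt-KO replicates 2 and 3 were low, so the groups overlapped. The WT mean was 9.65 ± 1.57 (SD, n = 3) and the knockout mean 7.86 ± 2.59 (SD, n = 3). The difference of -1.79 had a standard error of 1.25 (adjusted p = 0.999 by limma). It was -3.29 without Top1mt-KO replicate 1 and -0.99 without Top1mt-KO replicate 3.

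Dlk1 lay near the bottom of the scale, at 1.53, 1.80 and -0.81 in WT replicates 1 to 3 and 0.47, -0.88 and -0.99 in Top1mt-KO replicates 1 to 3. It was above 1 in WT replicates 1 and 2, and its difference of -1.31 (standard error 0.72) came with overlapping groups. The difference was -0.83 without WT replicate 2 and -2.13 without WT replicate 3. WT replicate 3, which had the highest Meg3, had one of the lowest Dlk1 values. The difference between Dlk1 and Meg3 within a library accordingly ran from -11.99 in WT replicate 3 to -6.24 in WT replicate 2, with -10.38, -7.37 and -7.24 in the knockout.

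Rian and Mirg, maternally expressed RNAs beyond Meg3, had the same order of libraries as Meg3. Rian, which carries small nucleolar RNAs, had 9.70, 7.87 and 11.37 in WT and 11.07, 6.65 and 5.63 in Top1mt-KO tumors. Meg3 and Rian differed by no more than 0.62 in any library. Mirg, the host of a microRNA cluster, had 6.49, 5.20 and 8.32 in WT and 7.87, 3.11 and 0.09 in the knockout, a range of 8.23. Rtl1 is a paternally expressed gene on the minus strand, within the stretch from which the maternal RNAs are read on the plus strand. It had 5.86, 5.28 and 7.94 in WT and 7.18, 1.64 and 3.39 in the knockout, and its reads cannot be told apart from antisense reads here. Dio3, at the far end of the cluster, was near the bottom of the scale, between -0.87 and 0.03.

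Between Dlk1 and Dio3 the annotation held 117 genes, of which 17 were tested. WT replicate 3 and Top1mt-KO replicate 1 were the top libraries in 14 of the 17, and Top1mt-KO replicates 2 and 3 the bottom ones in 13. Both held in 10 of the 17, and in 1.1% of all genes tested. Of the 10, 5 had a mean below 0, Gm23600, Gm24564, Mir1188, Mir341 and Mir493, named after their values were seen. In most of these WT replicate 2 lay at the bottom of the scale beside Top1mt-KO replicates 2 and 3, as in Dio3, so their lower order is that of values near the floor. The other 5 were Meg3, Rian, Mirg, Rtl1 and Gm26945. This order was chosen after the values of Meg3 were seen, and Gm26945, which lies within Rian, shows that the 17 genes are not independent of each other. Of the 17, 0 separated between the genotypes, where 8.28% of all genes tested did. The noncoding RNA Gm42418 and the gene Lars2 were also highest in Top1mt-KO replicate 1, at 22.0 and 20.1, and next in WT replicate 3, at 15.8 and 12.7. In the other 4 libraries Gm42418 was between 11.7 and 12.7 and Lars2 between 8.44 and 9.05. Gm15564 rose in the same libraries, with 16.8 in Top1mt-KO replicate 1, 8.9 in WT replicate 3 and 3.93 to 4.83 elsewhere. In Top1mt-KO replicate 1, Gm42418 even lay above the hepatocyte marker Alb, at 21.1, so these 2 libraries differed from the rest in more than the cluster. Of the nuclear RNAs Malat1 and Neat1, Malat1 was lowest, at 16.8, in Top1mt-KO replicate 2 and between 17.4 and 17.8 elsewhere, and Neat1 ran from 14.3 to 15.8. The part of these RNAs in the order of Meg3 was not tested.

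**Figure D4:**
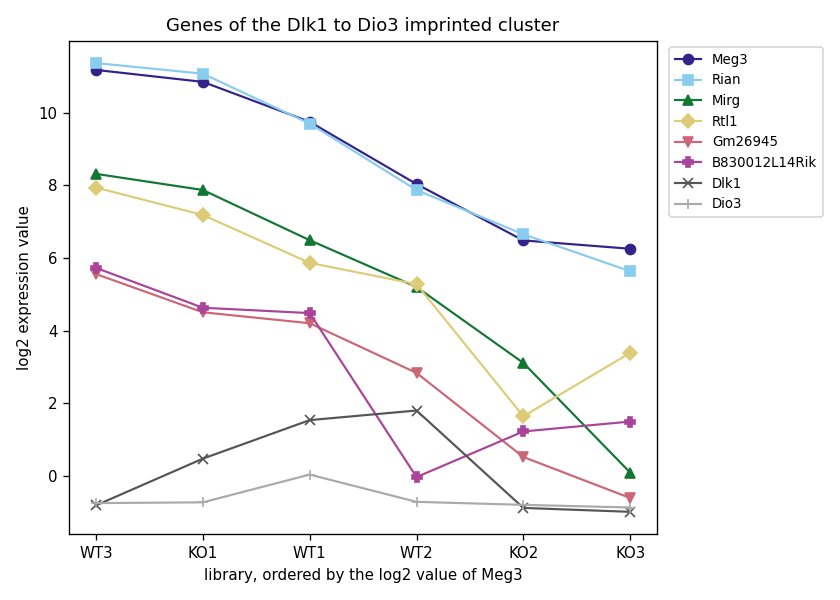
Log2 expression value (vertical axis) of 8 genes of the Dlk1 to Dio3 cluster in the 6 libraries, ordered along the horizontal axis by Meg3, with a line for each gene. Meg3 and Rian ran side by side from WT replicate 3 (11.18 and 11.37) down to Top1mt-KO replicate 3 (6.25 and 5.63), while Dlk1 and Dio3 stayed near the bottom.

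The remaining members were Cdkn1c, Grb10 and Mest, whose ranges over the 6 libraries lay between 0.97 and 1.31, near the median range of 1.03 over all genes tested. Cdkn1c encodes the cell cycle inhibitor p57, which blocks cyclin-dependent kinases. It had 5.88, 5.56 and 4.90 in WT replicates 1 to 3 and 4.61, 4.98 and 5.93 in Top1mt-KO replicates 1 to 3. Top1mt-KO replicate 3 was the highest and WT replicate 1 close below it, and the difference of -0.27 (standard error 0.44) was near 0 (0.0051) without Top1mt-KO replicate 1. Grb10 encodes an adaptor that dampens signalling of the insulin and IGF1 receptors. It had 8.93, 9.16 and 8.38 in WT and 8.61, 9.19 and 8.22 in the knockout, and varied more within each group than between them. The difference of Grb10 was -0.15 (standard error 0.29). Mest, a paternally expressed gene for a protein of the hydrolase fold family, had 7.11, 7.20 and 7.65 in WT and 7.30, 8.14 and 7.34 in the knockout. Top1mt-KO replicate 2 was highest, and the difference of 0.27 (standard error 0.27) fell to 0.00067 without that library.

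Copg2, which overlaps Mest on the opposite strand and encodes a coat protein of transport vesicles, separated upward. It had 9.06, 8.59 and 9.15 in WT and 9.34, 9.41 and 9.36 in Top1mt-KO tumors (difference 0.44, standard error 0.17, unadjusted p = 0.0335, adjusted p = 0.999 by limma). Without WT replicate 2 the difference was 0.27. Near Cdkn1c, the transporter gene Slc22a18 separated downward, with 10.1, 9.91 and 9.87 in WT and 9.81, 9.78 and 9.36 in the knockout (difference -0.31, standard error 0.16). Its difference was -0.17 without Top1mt-KO replicate 3. Within 500 kb of Cdkn1c, 26 genes were tested, of which 2 separated upward and 1, Slc22a18, downward. Over all genes tested, 3.95% separated upward and 4.33% downward. The upward ones, Cars and Trpm5, were named after their values were seen. Cars had 9.23 to 9.40 in WT and 9.57 to 10.24 in the knockout, and Trpm5 had 1.52 to 1.88 and 1.95 to 3.26. Phlda2, a maternally expressed brake on placental growth, had 2.32 to 3.69 in WT and 2.54 to 3.28 in the knockout. Ascl2, a transcription factor of the placenta in the same cluster, lay between -0.43 and 0.96 in all libraries. Kcnq1ot1 was not analysed here.

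To order the members by level, their values were divided by the length of their annotated exons and given as log2 values for each kilobase. Igf2r was the highest at 8.21 ± 0.20 (SD over the 6 libraries), followed by H19 at 6.77 ± 1.55, Grb10 at 5.56 ± 0.41, Mest at 5.48 ± 0.38, Peg3 at 4.73 ± 1.17, Meg3 at 4.58 ± 2.15, Cdkn1c at 4.28 ± 0.55 and Plagl1 at 3.99 ± 0.57. Each of these overlapped its neighbour in the order over the libraries. Igf2 at 0.63 ± 0.89 lay below all of them in all 6 libraries, and Dlk1 at -2.31 ± 1.27 lay below Igf2. The receptor that removes IGF2 thus had a higher level for each kilobase than the transcript of the ligand in all 6 libraries.

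Other imprinted genes were read in the same way from a list of 45, of which 39 were in the table and 36 were tested. Of the 36, 10 had a higher mean in Top1mt-KO tumors and 26 a lower one, where 47.7% of all genes tested were higher. The median difference of the 36 was -0.14. With 1 library left out, the number higher ran from 11 to 15. Rian, Mirg, Rtl1 and Dio3, all lower, lie in the Dlk1 to Dio3 cluster and are not independent of each other. The groups separated in 5, 3 of them upward (3.95% of all genes tested) and 2 downward (4.33%). The downward ones were Airn and Slc22a18, and Copg2, Asb4 and Tfpi2 were the upward ones. Asb4, a maternally expressed gene of the ubiquitin ligase family, had 3.28, 3.56 and 2.68 in WT and 4.16, 4.30 and 4.44 in the knockout (difference 1.13, standard error 0.43, unadjusted p = 0.0311, adjusted p = 0.999 by limma). Tfpi2, a maternally expressed protease inhibitor gene, had 9.46, 9.24 and 9.24 in WT and 9.48, 9.88 and 9.62 in the knockout (difference 0.34, standard error 0.15). Airn, Copg2 and Asb4 had an unadjusted p under 0.05 by limma, where 4.34% of all genes tested did, and 0 of the 36 passed the adjusted threshold.

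By parental origin, Mest of the 4 paternally expressed members other than Peg3 and H19 of the 5 maternally expressed ones had a higher mean in the knockout, where 47.7% of all genes tested did. Of the 16 tested paternally expressed genes outside the members' clusters, 2 had a higher mean, Peg10 and Rasgrf1, and 14 had a lower one. All 16 overlapped between the groups, where 8.28% of all genes tested separated. Of the 10 maternally expressed ones, 6 had a higher mean and 2, Asb4 and Tfpi2, separated upward, where 3.95% of all genes tested did. The parental classes were not tested against each other. Imprinting of several of these genes is known only in tissues such as placenta or brain. The paternal or maternal class was taken from general knowledge and was not measured.

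**Figure D5:**
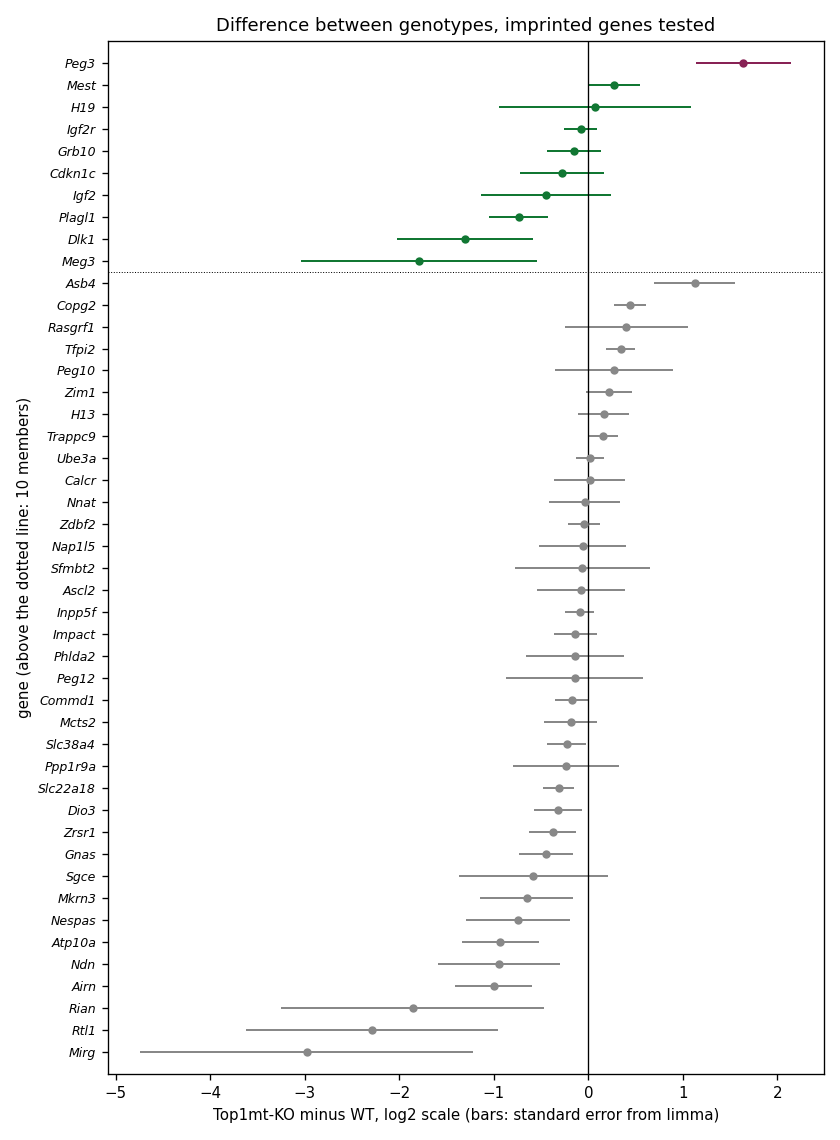
Difference between Top1mt-KO and WT means on the log2 scale (horizontal axis, bars for the standard error from limma) of the 10 members above the dotted line and the 36 other imprinted genes tested below it. Peg3, at 1.64, lay farthest to the right, but it was chosen by this rise and its bar is not a test. Mirg at -2.98, Rtl1 at -2.29 and Rian at -1.86 lay farthest to the left with wide bars.

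Receptors, binding proteins and RNA-binding partners of the IGF and insulin pathway were followed beside Igf2, Igf2r and Grb10. Of 15 genes tested, 7 had a higher and 8 a lower mean in the knockout, where 47.7% of all genes tested were higher. Their median difference was -0.13. In 14 the groups overlapped and 1 separated downward, where 4.33% of all genes tested did. Igf2bp2, which encodes a protein that binds Igf2 and other messenger RNAs, separated downward, with 5.23, 5.07 and 4.63 in WT and 4.27, 4.49 and 4.55 in Top1mt-KO tumors (difference -0.54, standard error 0.35). Its relative Igf2bp3, named after its values were seen, had 5.03, 4.84 and 5.25 in WT and 4.70, 7.18 and 6.35 in the knockout. Igf1, the adult growth factor of the liver, ran from 11.6 to 12.4 in WT and from below the WT libraries in Top1mt-KO replicate 1 to 12.9 in the knockout. Igf2bp1, near the bottom of the scale, was the only gene of the list with an unadjusted p under 0.05 by limma. Over all genes tested 4.34% had one, and 0 of the list passed the adjusted threshold.

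Factors that keep or remove methylation at imprinted genes were examined last. Of 14 genes tested, 7 had a higher and 7 a lower mean in the knockout, where 47.7% of all genes tested were higher. The median difference was -0.02. All 14 overlapped between the groups, where 8.28% of all genes tested separated. Zfp57 had 6.73, 6.49 and 4.99 in WT and 6.61, 4.83 and 6.62 in Top1mt-KO tumors, lowest in one library of each genotype. Zfp57, Dnmt3b and Tet1 were named after their values were seen. Dnmt3b, a methyltransferase that sets new methylation, had 5.22, 5.37 and 5.47 in WT and 5.31, 6.22 and 7.29 in the knockout, highest in Top1mt-KO replicate 3, where Peg3 was also highest. Tet1, which starts the removal of methylation, had 5.31, 4.24 and 4.08 in WT and 1.56, 4.08 and 4.15 in the knockout, low in Top1mt-KO replicate 1 alone. None of the 14 genes had an unadjusted p under 0.05 by limma, where only 4.34% of all genes tested did.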

How the data were processed

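RNA from 3 WT and 3 Top1mt-KO liver tumors was analysed, grouped by the labels. Libraries were made with a stranded kit. The authors deposited normalized log2 expression values per gene symbol, whose transform is not named and which keep no counts or depth, so no count model was run. The submitters' processing notes name bcl2fastq 2.17, Trimmomatic 0.36, STAR 2.5.1, Subread, DESeq2 and GRCm38, whereas the methods of the study name BWA and Mm 8. This disagreement could not be settled.

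The comparison used limma 3.58.1 under R 4.3.3 (lmFit and eBayes with a trend, Benjamini-Hochberg adjustment over all 22677 genes tested, threshold 0.05). The labels do not tie each tumor to a mouse, so p-values measure the spread between these libraries. The procedure was tested on simulated data. Further per-sample columns numbered 0, and 5 symbols occurred more than once.

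The members and gene lists were chosen with earlier results of these data known. Genes named were the members, their imprinted cluster neighbours, genes of the other lists, cell type markers apart, whose groups did not overlap (at most 6 a list), the 5 genes closest to Peg3, Top1mt and markers near the bottom of the scale. Others are said to be named after their values were seen, or stand beside a result as a measured level. Besides the lists in the text, macrophage (8.11 to 9.57), endothelial (9.17 to 9.50), lymphocyte (3.46 to 4.04) and proliferation markers (7.04 to 8.31) were read as mean log2 values and overlapped between the genotypes. Alternatives were no trend, quantile normalization, a filter at the median or none, a replicate block, leaving out single libraries, and, added after the data were seen, 2 pairs of libraries left out. Exon lengths and positions came from GENCODE M21, promoters from RefSeq, both on GRCm38.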

Additional observations from a re-analysis of the deposited data

How the results depend on the processing

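Dropping the filter let 4 genes pass the adjusted threshold, 1700049E15Rik, Gm14130, Gm25081 and Gm26962, all near the bottom of the scale, and with one library left out 0 to 1 did (Prom1, without Top1mt-KO replicate 1). Genes at an unadjusted p under 0.05 numbered 590 with a filter at the median, where fewer genes were tested, and 860 to 1403 with one library or an added pair left out. Same-numbered libraries deviated with correlations of -0.123, -0.0759 and 0.0520, so no shared deviation was seen. Correlations near 0 cannot show whether these tumors were paired. With the replicate block, 912 genes had an unadjusted p under 0.05 by limma and 0 were called. Of the other 9 members, 1 to 4 had a higher mean with one library left out, and 1 without both WT replicate 3 and Top1mt-KO replicate 1. Of the other imprinted genes, 11 to 15 did, and 16 without that pair, with medians of -0.23 to -0.093.

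Of 44 named genes, 14 reversed with one library left out. With single libraries or either added pair (WT replicate 2 or 3 together with Top1mt-KO replicate 1) left out, their differences ran from -0.77 to 1.27 for H19, -1.20 to 0.071 for Igf2, -0.26 to 0.053 for Igf2r, -0.65 to 0.061 for Cdkn1c, -0.41 to 0.074 for Grb10, -0.47 to 0.48 for Ascl2, -0.47 to 0.29 for Phlda2, -0.0021 to 0.35 for Zim1, -0.46 to 0.78 for Peg10, -1.53 to 0.43 for Sgce, -0.85 to 0.28 for Ppp1r9a, -3.75 to 0.22 for B830012L14Rik, -0.22 to 0.93 for Igf1 and -0.89 to 0.54 for Zfp57. With quantile normalization Zfp57 had 0.0027. The causes were not tested. None of the named genes with a test, which leaves out Peg3, passed (smallest adjusted p 0.188 by limma). Depth was unknown, so no detection limit could be given.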

Other observations

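The Peg10 to Sgce cluster, whose values were picked after they were seen, had a library order unlike that of Meg3. Peg10, a paternally expressed gene of retroviral descent, had 7.22, 6.65 and 5.89 in WT replicates 1 to 3 and 5.92, 6.34 and 8.33 in Top1mt-KO replicates 1 to 3. Its partner Sgce had 6.97, 7.33 and 7.48 in WT and 4.88, 6.59 and 8.57 in the knockout. Ppp1r9a of the same cluster had 9.66, 8.18 and 9.12 in WT and 7.85, 8.42 and 9.98 in the knockout. All 3 genes were highest in Top1mt-KO replicate 3, the library with the highest Peg3, and their groups overlapped. Tfpi2 and Calcr, of the same stretch of chromosome 6, were highest in Top1mt-KO replicates 2 (9.88) and 1 (0.63), and Asb4 also belongs to it.

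Over the 46 imprinted genes tested, members included, Top1mt-KO replicate 3 was the lowest library in 20, a larger share than the 22.4% of all genes tested. It was the highest in 7 of the 46, near its share of 16.1% of all genes tested. WT replicate 3 was the highest in 12 of the 46, and in 16.7% of all genes tested. Neighbours in a cluster are not independent of each other, so these counts are a description. The genes closest to Meg3 by their centred values were Rian (root mean square difference 0.29), Gm26945 (0.55), Rtl1 (0.71), B4galnt4 (0.76) and Krt5 (0.90), of which the first 3 lie in its own cluster. B830012L14Rik, another gene of that cluster, had 4.48, -0.03 and 5.73 in WT and 4.63, 1.22 and 1.49 in the knockout.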
